A study of Mus musculus with 6 samples.

Results

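The 10 glutathione S-transferase genes described here are Gsta1, Gsta2, Gsta3 and Gsta4 of the alpha class, Gstm1, Gstm2 and Gstm3 of the mu class, Gstp1 of the pi class, Gstt1 of the theta class and Gsto1 of the omega class. They were taken by gene name from the 56362 features of the count tables, and all 10 were found. The set was proposed with results of the same comparison in view, so the values of these genes in wild type and knockout mice are a description. Test results given for them below are no evidence about the set. The libraries came from the intestine of BALB/c mice, from 3 wild type mice and from 3 FcεRIα knockout mice, which the labels also call FC. FcεRIα is the subunit with which the high-affinity IgE receptor binds its antibody. The letters DSS stand in the title of every library, wild type and knockout alike, without being explained, and the labels give neither an age nor how the knockout was made. The labels name the intestine as the tissue, whereas the series title names epithelial cells. The design implies 1 comparison, knockout against wild type gut.

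Glutathione S-transferases join the thiol of the tripeptide glutathione to reactive electrophiles, such as drug metabolites, dietary compounds and products of lipid peroxidation, and the conjugates are then pumped out of the cell and broken down. The soluble enzymes work as dimers and fall into classes by sequence. In the gut they are made mostly by the epithelium, and several are known targets of NRF2, the transcription factor of the antioxidant response, and of the aryl hydrocarbon receptor.

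Totals ran from 19031833 to 23092382 estimated counts per library. Levels are given as CPM, counts relative to a library total that was scaled by TMM (trimmed mean of M values, a factor that balances the libraries), and a count of 0 in 1 library allowed up to 0.124 to 0.187 CPM (the level of 3 counts, counting error only). Fcer1a, the targeted gene, held 0, 10 and 18 counts in the wild types against 1, 0 and 0 in the knockouts, so wild type library 1 could not be told from the knockouts by this gene. A marker of the large intestine was abundant and one of the small intestine nearly absent. Car1, a carbonic anhydrase of colonocytes, lay between 206 and 741 CPM, and Sis, the sucrase-isomaltase of small intestinal enterocytes, held 0 to 2 counts per library. Other small intestinal markers were present. The 12 listed, Sis among them, summed to 74.7 to 169 CPM among wild types and 177 to 206 CPM among knockouts. The 10 colonocyte markers summed to 2644 to 14070 CPM and 6434 to 8508 CPM. The sum of 15 epithelial marker genes ranged over 14805 to 30736 CPM among wild types and 22785 to 27056 CPM among knockouts. By these markers wild type library 1 stood apart from the other wild type libraries. Its sum of 10 fibroblast markers was 573 CPM, against 4294 and 5290 CPM in the other wild types and 845 to 3069 CPM in the knockouts.

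The alpha class genes Gsta1 and Gsta2 carry the largest differences of the set, and they are near-identical copies. Gsta1 (ENSMUSG00000074183) lies on chromosome 9 at 78230656 to 78242684 on the plus strand, and Gsta2 (ENSMUSG00000057933) on chromosome 9 at 78331018 to 78355788 on the minus strand, in GENCODE vM21 on GRCm38. Between them lie the predicted gene Gm3776 and the gene named Gsta5 in the deposited tables. The coding sequences of Gsta1 and Gm3776 differed at 2 of 672 aligned bases, those of Gsta1 and Gsta2 at 17, and those of Gsta2 and Gsta5 at 10 of 669. A stretch of 60 coding bases, bases 581 to 640 of the Gsta1 coding sequence, shows how little separates the copies. It was picked for the most differing positions among gap-free stretches in which Gsta1 and Gm3776 differ, so it is not a typical stretch. Capitals mark bases that differ from Gsta1.
Gsta1: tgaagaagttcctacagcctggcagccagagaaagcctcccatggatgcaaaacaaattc
Gm3776: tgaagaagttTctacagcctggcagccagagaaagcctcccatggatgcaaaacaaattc
Gsta5: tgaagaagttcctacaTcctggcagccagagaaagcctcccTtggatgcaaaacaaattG
Gsta2: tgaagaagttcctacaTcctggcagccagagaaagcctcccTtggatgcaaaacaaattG
In this stretch Gsta2 and Gsta5 read the same, with 3 differences from Gsta1, and Gm3776 has 1.

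The likeness limits how well reads can be assigned. Of the 50-base stretches of the Gsta1 transcript, 89.7% also occur in the transcript of another gene, and 82.9% occur in Gm3776. For Gsta2 the share was 64.2%, with Gsta1 the closest gene at 44.8%. Gstp1 shared 62.3% of its stretches with Gstp2, a neighbouring copy whose coding sequence is 98.1% identical. The shares for the mu class genes were 33.0% for Gstm1, 28.8% for Gstm3 and 9.36% for Gstm2. Gsta3, Gsta4, Gstt1 and Gsto1 shared none. Levels of Gsta1, Gsta2, Gstp1 and, to a lesser degree, the mu class genes are therefore uncertain as to which copy the reads came from, and sums over the alpha class copies are given beside them.

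The copies are also alike upstream of their start. RefSeq places the start of Gsta2 inside the longer GENCODE interval given above, so its window lies within that interval, upstream of the RefSeq start. In the RefSeq windows (GRCm38.p6), the bases from 200 to 51 before the start of Gsta1 and Gsta2 were 72.1% identical, and 53 of the 150 bases fell in exact shared runs of 12 or more, which are in capitals. The sequences are shown because these are the genes of the set that lay lowest in the knockouts.
Gsta1, chr9:78230469-78230618, plus strand: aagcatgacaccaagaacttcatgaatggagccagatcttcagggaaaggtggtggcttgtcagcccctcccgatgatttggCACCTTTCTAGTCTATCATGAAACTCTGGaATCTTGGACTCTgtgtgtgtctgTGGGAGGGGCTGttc
Gsta2, chr9:78347196-78347345, minus strand: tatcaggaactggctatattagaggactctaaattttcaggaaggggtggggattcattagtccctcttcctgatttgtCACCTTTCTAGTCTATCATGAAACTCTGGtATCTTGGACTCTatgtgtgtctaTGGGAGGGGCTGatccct
Each gene holds 3 such runs, in the same order.

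Core motifs of the antioxidant response element and the xenobiotic response element were searched on both strands of the RefSeq windows, which reach from 250 bases before to 50 after each start. TGACNNNGC, the core through which NRF2 acts, was found in 1 of the 9 genes of the set that have a window, against 14.0% of all 27018 genes with a window (12.4% of 32841 windows). The match lay in Gsta3, 121 bases before the start, and read TGACATTGC. TNGCGTG, the core bound by the aryl hydrocarbon receptor, was found in 1 of the 9, against 5.84% of those genes (5.07% of windows). That match lay in Gsta2, 9 bases before the start, and read TAGCGTG, as did a match in Gm3776, 9 bases after its start. These are matches of letters in a short window and say nothing of binding.

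Gsta1, an alpha class enzyme that conjugates electrophiles and reduces lipid hydroperoxides, was at 35.7, 30.8 and 17.4 CPM in the wild type libraries 1 to 3, against 8.65, 6.49 and 11.5 CPM in knockout libraries 1 to 3. Each knockout library lay below each wild type library, and wild type library 3 and knockout library 3 came nearest to each other. The means were 28.0 ± 9.47 and 8.87 ± 2.50 CPM (SD, n = 3 each). The log2 fold change of knockout against wild type was -1.65 with a standard error (SE) of 0.35, from a fit by edgeR over all genes.

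Gsta2, which encodes the sister alpha class subunit, was at 1.50, 1.53 and 0.679 CPM in the wild types against 0.236, 0.140 and 0.174 CPM in the knockouts. These levels rest on few reads, 24, 37 and 15 estimated counts in the wild types against 5, 3 and 4 in the knockouts. The groups did not overlap, and the log2 fold change was -2.71 (SE 0.54). From the group totals of 76 and 12 counts the level in wild type was 6.66 times that in knockout, with a 95% exact binomial interval of 3.60 to 13.4 that covers counting error only. Gsta2 passed the filter on low counts through its wild type libraries alone, since 0 of 3 knockout libraries reached the filter's 0.459 CPM, and a gene kept in that way had to differ.

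The sum of Gsta1 and Gsta2 removes the division of reads between these copies, though not that with Gm3776 and Gsta5. It was at 37.2, 32.3 and 18.1 CPM in the wild types against 8.89, 6.63 and 11.6 CPM in the knockouts. The lowest wild type library stood above the highest knockout library, and the means of 29.2 ± 9.93 and 9.05 ± 2.51 CPM (SD, n = 3 each) differed by a fitted factor of 3.22. The log2 fold change was -1.69 (SE 0.35). Gsta1 gave most of the sum in every library.

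**Figure D1:**
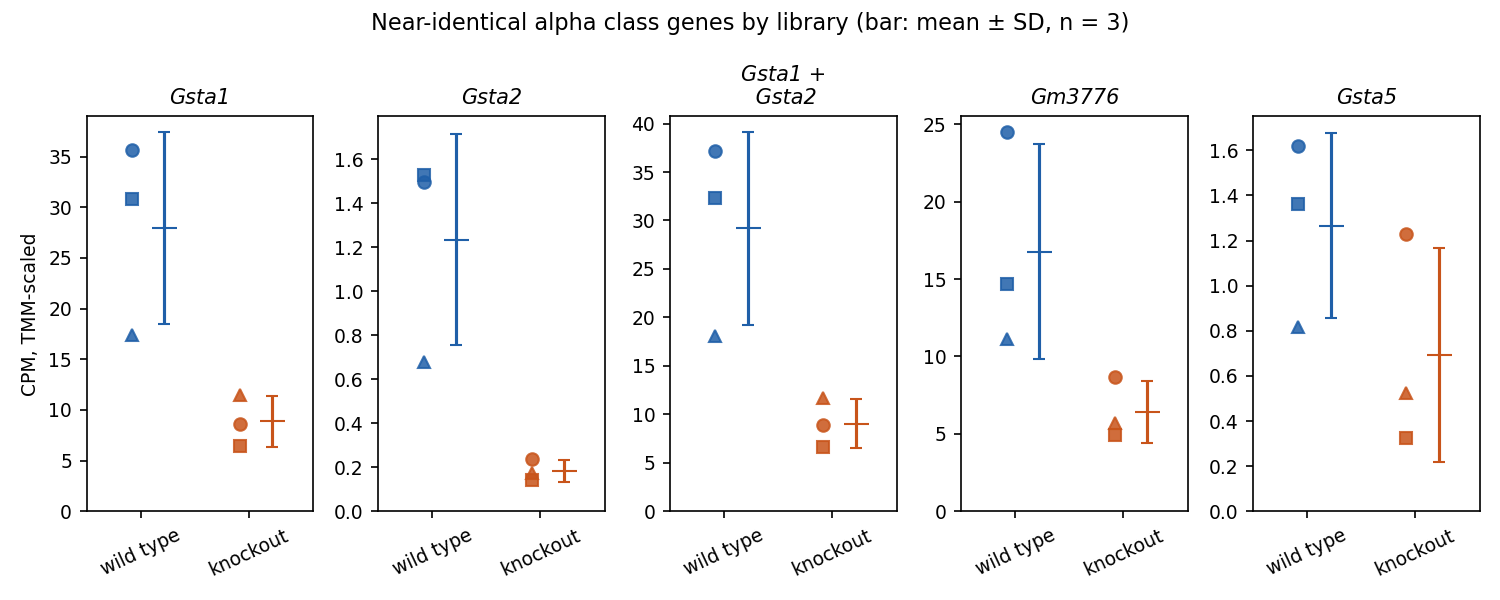
Levels of the near-identical alpha class genes in 6 libraries, in TMM-scaled CPM on linear axes that start at 0, with circles, squares and triangles for libraries 1, 2 and 3, wild type in blue and knockout in orange, and bars for mean ± SD (n = 3). The knockout points lie below the wild type points for Gsta1, Gsta2, their sum and Gm3776, and the groups overlap for Gsta5.

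The remaining copies were measured too. Gm3776, a predicted alpha class gene, was at 24.5, 14.7 and 11.1 CPM in the wild types against 8.70, 4.90 and 5.71 CPM in the knockouts, with no overlap and a log2 fold change of -1.38 (SE 0.38). Gsta5 was at 1.62, 1.36 and 0.815 CPM in the wild types against 1.23, 0.327 and 0.523 CPM in the knockouts, where the groups overlapped. All 4 copies summed to 63.3, 48.4 and 30.0 CPM in the wild types against 18.8, 11.9 and 17.9 CPM in the knockouts, and the log2 fold change was -1.54 (SE 0.32). The division among the copies was similar in both groups for Gsta1, with 59.4 ± 3.89% of the 4 copies' counts in wild type and 55.0 ± 9.01% in knockout (SD, n = 3 each). Gsta2 held 2.35%, 3.15% and 2.29% in the wild types against 1.14%, 1.17% and 1.04% in the knockouts. These shares rest on the same few counts as its level, 5, 3 and 4 in the knockouts, and are no further evidence. How the counting program divides reads between copies is not given in the sources used here.

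Gsta3, another alpha class gene (chromosome 1, 21240589 to 21265661, plus strand), was at 13.3, 4.54 and 7.02 CPM in the wild types against 4.63, 1.91 and 6.45 CPM in the knockouts. The highest was wild type library 1 and the lowest knockout library 2, and the others overlapped. The log2 fold change was -0.93 (SE 0.57). Gsta4, the alpha class enzyme with high activity towards 4-hydroxynonenal, a product of lipid peroxidation (chromosome 9, 78182774 to 78209349, plus strand), was at 223, 92.3 and 79.8 CPM in the wild types against 78.0, 111 and 86.5 CPM in the knockouts. Wild type library 1 alone lay above the knockouts. The log2 fold change was -0.52 (SE 0.41), and 0.05 (SE 0.17) without wild type library 1.

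The mu class genes, a cluster on chromosome 3 whose enzymes conjugate epoxides and other electrophiles, showed smaller differences. Gstm1 (108012255 to 108017973, minus strand) was at 108, 52.0 and 85.4 CPM in the wild types against 63.0, 57.4 and 86.6 CPM in the knockouts, with a log2 fold change of -0.25 (SE 0.30). Gstm2 (107981702 to 107986453, minus strand) was at 138, 59.6 and 86.6 CPM in the wild types against 96.1, 124 and 117 CPM in the knockouts, with a log2 fold change of 0.25 (SE 0.31). In both genes the knockout libraries lay within the range of the wild type ones. Gstm3 (107963696 to 107969283, minus strand) was low in every library, at 2.56, 0.578 and 0.815 CPM in the wild types against 1.09, 1.03 and 1.13 CPM in the knockouts. The 3 knockout libraries lay between the wild type ones, and the log2 fold change of -0.26 (SE 0.62) became 0.59 (SE 0.41) without wild type library 1.

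Gstp1, the pi class enzyme found in most epithelia and a regulator of stress kinase signalling (chromosome 19, 4035407 to 4037985, minus strand), was the most abundant of the 10. It was at 558, 224 and 221 CPM in the wild types against 284, 230 and 288 CPM in the knockouts. Wild type library 1 stood far above the other 5, and wild type libraries 2 and 3 stood below every knockout library. The log2 fold change of -0.32 (SE 0.39) became 0.23 (SE 0.15) without wild type library 1. The copy Gstp2 had the same shape, at 91.2, 20.2 and 23.7 CPM in the wild types against 40.1, 34.0 and 37.2 CPM in the knockouts.

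Gsto1, the omega class enzyme that reduces dehydroascorbate and removes glutathione from protein thiols (chromosome 19, 47854970 to 47864790, plus strand), was at 337, 214 and 206 CPM in the wild types against 237, 196 and 245 CPM in the knockouts. The means were 252 ± 73.4 and 226 ± 25.9 CPM (SD, n = 3 each), a difference smaller than the spread between the wild type mice. Gstt1, the theta class enzyme that acts on small halogenated compounds (chromosome 10, 75783813 to 75798584, minus strand), was at 30.4, 13.5 and 18.4 CPM in the wild types against 15.8, 32.3 and 15.4 CPM in the knockouts. Wild type library 1 and knockout library 2 were both high, and the log2 fold change was 0.03 (SE 0.41).

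**Figure D2:**
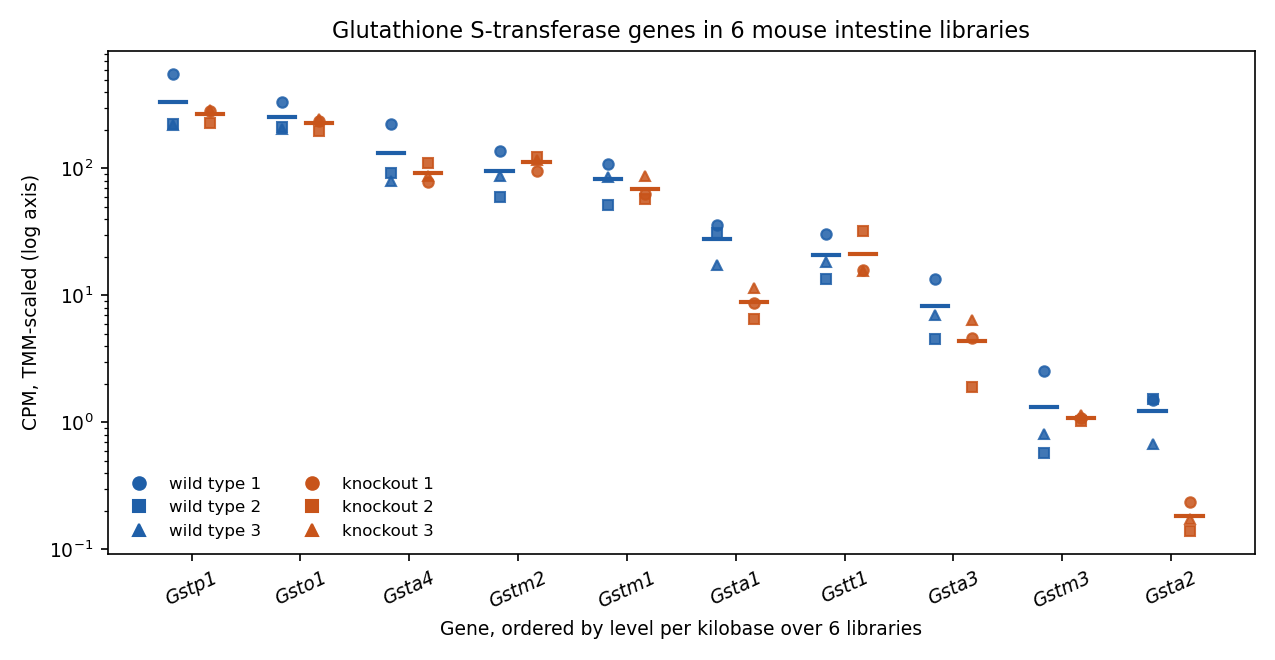
Level of each of the 10 genes in the 6 libraries, in TMM-scaled CPM on a log axis, with wild type in blue, knockout in orange, symbols for libraries 1 to 3 and a bar for each group mean. Gsta1 and Gsta2 are the genes whose groups part without overlap, and the circle of wild type library 1 is the top symbol of its group in 9 of the 10 genes.

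As a set, 8 of the 10 genes had a lower fitted level in knockout mice and 2 a higher one, with a median log2 fold change of -0.29. Over all 16732 genes tested, 55.8% were lower and the median was -0.05. With edgeR's quasi-likelihood test and a Benjamini-Hochberg adjusted p under 0.05, 0 of the 10 passed, beside 0% of all genes. At an unadjusted p under 0.05, 1145 genes, 6.84%, lay past the threshold, 2.30% with a lower level in knockout and 4.54% with a higher one. Of the set, Gsta1 and Gsta2 did. DESeq2 called 127 genes, 0.759% of those tested, and Gsta1 was among them, while Gsta2 was given no adjusted p. limma-voom called 2 genes, 0.0120%, and none of the set. The groups were without overlap, with knockout below wild type, in 2 of the 10 genes and in 4.27% of all genes, and with knockout above wild type in 0 of the 10 and in 8.73% of all genes. Gsta2 was kept by the filter through its wild type libraries alone, so its difference was fixed in advance, and Gsta1 is its near-identical copy. The genes were chosen from this contrast, so these counts are no evidence about the set. The p-values set the difference between 3 mice and 3 mice against the spread among mice of the same group, estimated with the help of all genes. In bulk tissue, fewer cells of a type and less RNA per cell cannot be told apart.

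**Figure D3:**
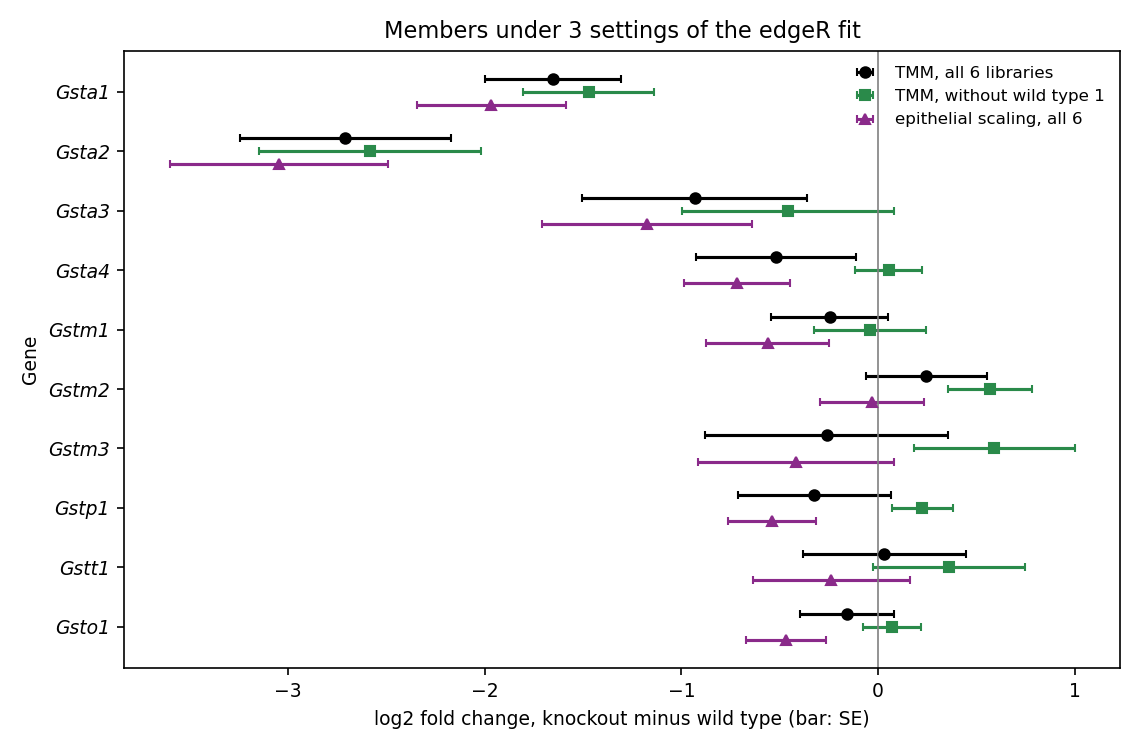
Log2 fold change of knockout against wild type for each gene, with bars of 1 SE, from edgeR with TMM on all 6 libraries (black circles), without wild type library 1 (green squares) and with library factors that hold 15 epithelial markers level (purple triangles). Gsta1 and Gsta2 lie left of 0 in all 3, while Gsta4, Gstm3, Gstp1 and Gsto1 cross 0 without wild type library 1 and Gstm2 and Gstt1 cross it under epithelial scaling.

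The highest level lay in wild type library 1 in 8 of the 10 genes. Centred on the mean of the 6 libraries, log2(CPM + 0.5) of the 10 genes averaged 0.85 in that library, -0.13 and -0.06 in the other wild type libraries and -0.25, -0.31 and -0.09 in the knockouts. Markers of the epithelium moved in the same direction there. The mean centred log2 of 10 colonocyte markers was 1.17, -1.19 and -0.81 in the wild types against 0.48, 0.29 and 0.07 in the knockouts, and that of 15 epithelial markers was 0.42, -0.42 and -0.52 against 0.29, 0.12 and 0.10. Fibroblast markers moved the other way, at -1.76, 1.01 and 1.22 against -1.15, 0.64 and 0.03. Gsta1 was at 1.20, 0.99 and 0.18 in the wild types, so that wild type library 2 was high in Gsta1 and low in epithelial markers. Markers of some other cell types also lay lower in knockout mice, beside the lower Gsta1 and Gsta2, and those of others did not. Of 10 neutrophil markers 10 had a lower fitted level (median log2 fold change -1.28), with summed levels of 499 to 1301 CPM among wild types and 618 to 694 CPM among knockouts. Of 8 stratified squamous markers 4 were tested and 4 were lower (median -2.52), and their sums were 13.9, 53.6 and 19.5 CPM against 5.44, 2.33 and 10.1 CPM, without overlap. All 10 endothelial markers (median -0.90), all 10 fibroblast markers (median -0.67) and all 10 lymphoid markers (median -0.58) were lower as well, with summed levels that overlapped. Of 8 mast cell markers tested 7 were lower (median -0.66), and of 8 smooth muscle markers 5 (median -0.05). Macrophage markers went the other way, 8 of 10 higher (median 0.18), as did 3 of 4 tested liver and pancreas markers (median 0.54). Colonocyte markers were higher in 7 of 10 (median 0.24), and small intestinal markers in 3 of 6 tested (median 0.10). None of these markers passed the test. The part of cell makeup in the values of the 10 genes was not tested. Without wild type library 1, 4 of the 10 genes were lower in knockout and the median log2 fold change was 0.06, while Gsta1 was at -1.47 (SE 0.33) and Gsta2 at -2.58 (SE 0.56).

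**Figure D4:**
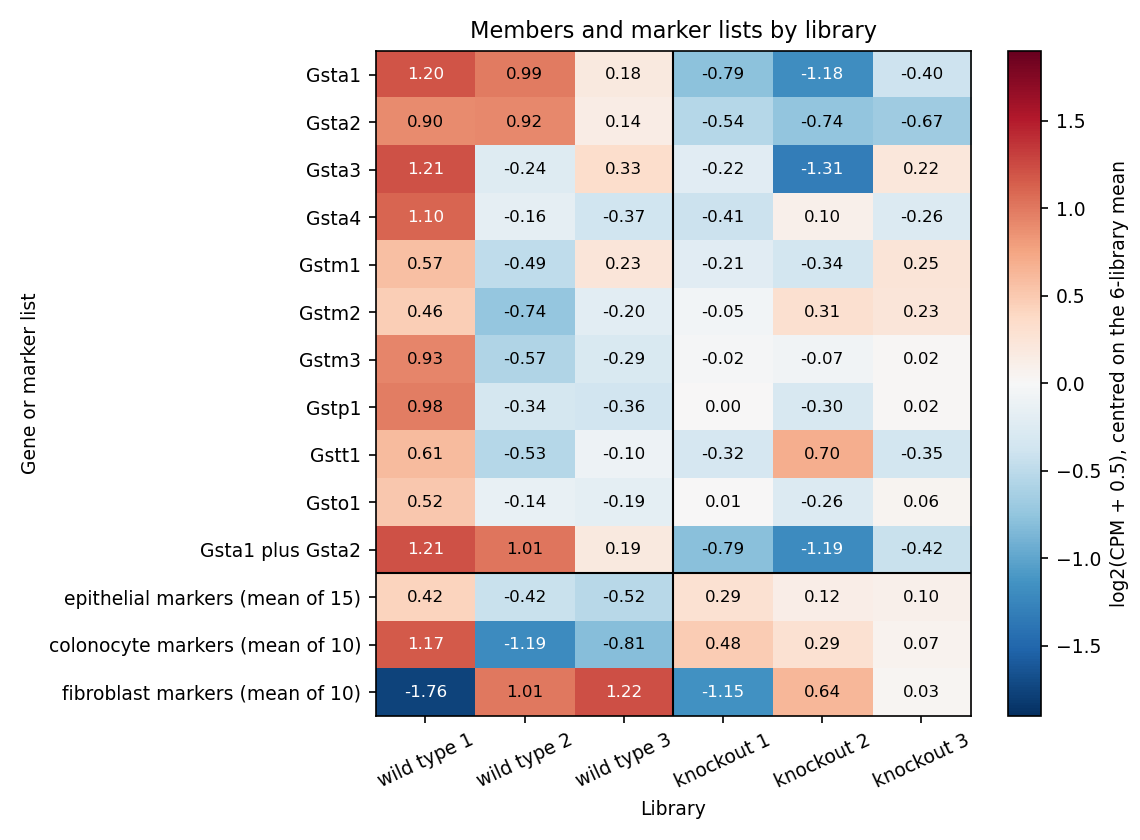
Log2(CPM + 0.5) centred on the 6-library mean, as colour and number, for the 10 genes, the sum of Gsta1 and Gsta2, and the means of 3 marker lists, with wild type libraries left of the black line and knockout libraries right of it. Wild type library 1 is high in all 10 genes and low in fibroblast markers (-1.76), and the knockout columns of Gsta1 and Gsta2 are all below 0. The added 0.5 narrows the values of Gsta2 and Gstm3, whose levels lie near it.

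Of the 15 epithelial markers, 14 had a higher fitted level in knockout mice, and none passed the test. When the libraries were scaled so that the mean log2 level of these markers was the same in each, Gsta1 was at 26.7, 41.1 and 24.9 scaled CPM in the wild types against 7.06, 5.95 and 10.7 in the knockouts. On that scale all 10 genes had a lower fitted level in knockout, with a median log2 fold change of -0.55, beside a median of -0.44 over all genes tested. Gsta1, Gsta2, Gsta3, Gsta4, Gstp1 and Gsto1 then had every knockout library below every wild type library, 6 of 10 genes beside 9.13% of all genes, and 0 of 10 had the opposite order beside 1.95%. Of these, Gsta3, Gsta4, Gstp1 and Gsto1 overlapped between the groups under TMM. Gsta2 had passed the filter through its wild type libraries alone, and Gsta1 and Gsta2 are near-identical copies. With genes chosen from this contrast, these counts too are no evidence about the set.

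Levels divided by transcript length give a rough order between genes. The order depends on the single length deposited for each gene and, for some genes, on reads shared between copies. Over the 6 libraries it was Gstp1, Gsto1, Gsta4, Gstm2, Gstm1, Gsta1, Gstt1, Gsta3, Gstm3 and Gsta2. The means were 367 CPM per kilobase for Gstp1, 202 for Gsto1, 114 for Gsta4, 97.3 for Gstm2, 91.1 for Gstm1, 21.0 for Gsta1, 20.2 for Gstt1, 7.07 for Gsta3, 0.915 for Gstm3 and 0.815 for Gsta2. Some neighbours did not keep that order in every library. Gsta4 lay above Gstm2 in 3 of 6 libraries, the wild types, and Gstm2 above Gstm1 in 3, the knockouts. Gsta1 lay above Gstt1 in 3, the wild types, and Gstm3 above Gsta2 in 4, which were the knockouts and wild type library 1. The other neighbours kept their order in 6 of 6. In wild type mice Gsta1 (31.9 ± 10.8 CPM per kilobase) stood above Gstt1 (20.01 ± 8.37), and in knockout mice it stood below (10.1 ± 2.85 against 20.4 ± 9.32; SD, n = 3 each).

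The 10 genes also differed in how alike their profiles were. Likeness was measured as the root mean square difference between centred log2(CPM + 0.5) values over the 6 libraries, a description in which genes share the same libraries. The closest pair was Gstm3 and Gstp1, at 0.14, followed by Gsto1 and Gstp1 at 0.22, and by Gstm1 and Gsto1, Gstm3 and Gsto1, and Gsta1 and Gsta2, all at 0.26. Gstm3 (0.578 to 2.56 CPM) and Gsta2 (0.140 to 1.53 CPM) lie near the added 0.5, which narrows their profiles. The likeness values of these low genes depend on it. Gsta3 had no near partner, its closest being Gstm1 at 0.49. Among all 13478 candidate genes, those nearest to the sum of Gsta1 and Gsta2 were Glo1 at 0.25, Gtsf2 at 0.28, and Apoc2, Syt8 and Padi4 at 0.33 to 0.34, where the median candidate was at 0.96. Glo1, glyoxalase I, which uses glutathione to clear methylglyoxal, was at 283, 351 and 219 CPM in the wild types against 122, 80.6 and 134 CPM in the knockouts. The copy Gm3776, left out of that ranking as a predicted gene, was at 0.36. All 5 genes named by the ranking had a lower fitted level in knockout, from -1.34 for Glo1 to -1.11 for Apoc2 in log2. The groups of Gtsf2 and Syt8 overlapped. The summed copies were chosen for their difference, so genes near them share it by selection, and a link in function was not tested.

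The rest of the family lay on both sides of 0. Of 25 other glutathione transferase genes and relatives listed, 23 were in the tables and 21 were tested. With edgeR 0 passed, and DESeq2 and limma-voom also called 0. Gm3776 and Mgst1, 2 of the 21, had an unadjusted edgeR p under 0.05, beside 6.84% of all genes. The fitted level was higher in 11 and lower in 10, with a median log2 fold change of 0.02, against 7 higher and 14 lower under epithelial scaling (median -0.16). Without wild type library 1, 16 were higher and 5 lower (median 0.55). Mgst1, the microsomal transferase of the endoplasmic reticulum and outer mitochondrial membrane, was at 173, 72.4 and 104 CPM in the wild types against 213, 281 and 172 CPM in the knockouts, a log2 fold change of 0.93 (SE 0.35). Gstm7, another mu class gene, was at 4.18, 1.57 and 2.45 CPM in the wild types against 5.96, 5.41 and 4.80 CPM in the knockouts, where each knockout library was above each wild type library (log2 fold change 0.99, SE 0.42). Neither reached the adjusted threshold. Gstm4 had a log2 fold change of 0.39 (SE 0.28), against 0.04 under epithelial scaling. The most abundant of this list were Mgst3, a microsomal peroxidase, at 417 ± 270 CPM against 422 ± 46.6 CPM in the knockouts, and Clic1, a glutathione transferase fold protein of chloride channels, at 386 ± 162 and 415 ± 7.37 CPM (SD, n = 3 each).

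**Figure D5:**
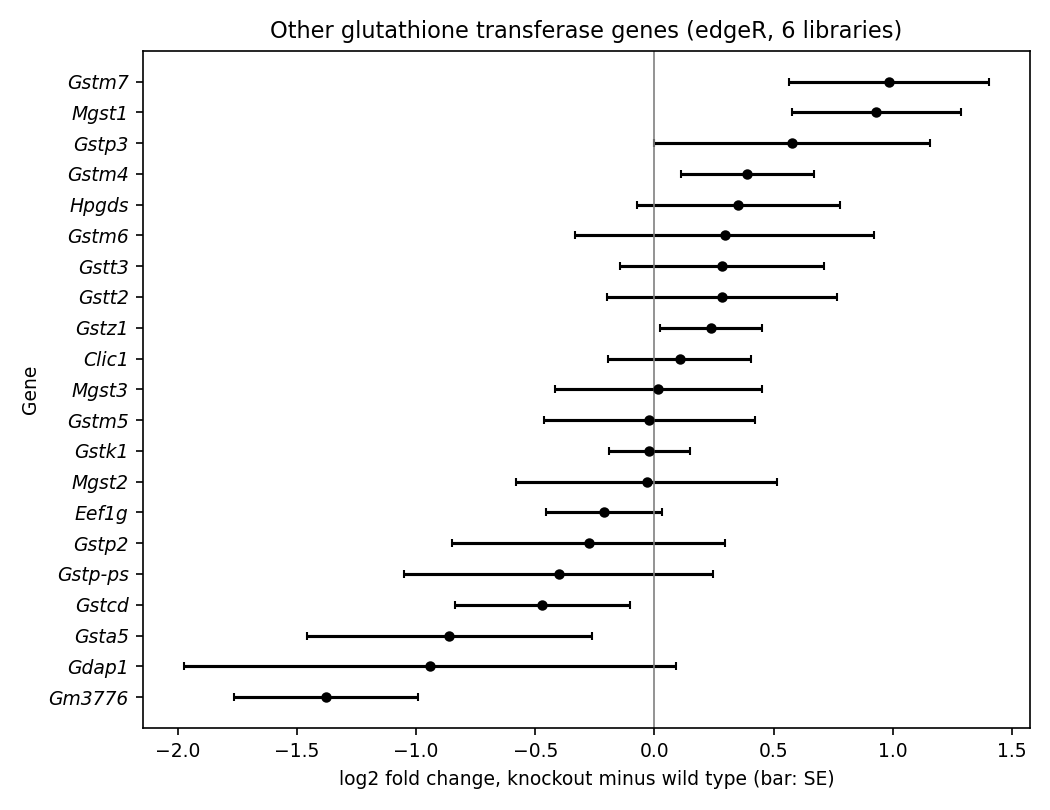
Log2 fold change of knockout against wild type for the 21 tested glutathione transferase genes outside the set, with bars of 1 SE, from edgeR on 6 libraries. The genes lie on both sides of 0, with Gm3776, the copy of Gsta1, lowest at -1.38 and Gstm7 highest at 0.99.

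Genes that make, recycle and use glutathione were mixed as well. Of 35 listed, 34 were tested and 0 passed with edgeR, DESeq2 or limma-voom. Gclm and Lap3, 2 of the 34, had an unadjusted edgeR p under 0.05, beside 6.84% of all genes. The fitted level was higher in 13 and lower in 21, with a median log2 fold change of -0.19, against 6 higher and 28 lower under epithelial scaling (median -0.59). Gclm, the modifier subunit of the enzyme that limits glutathione synthesis, was at 91.0, 83.2 and 69.2 CPM in the wild types against 49.5, 39.2 and 67.4 CPM in the knockouts, below without overlap though by a narrow margin (log2 fold change -0.64, SE 0.23). Lap3, a leucine aminopeptidase that can split cysteinylglycine, was at 158, 88.2 and 87.2 CPM in the wild types against 302, 292 and 191 CPM in the knockouts (log2 fold change 1.23, SE 0.31). Gpx1, the cytosolic glutathione peroxidase, was at 500, 369 and 395 CPM in the wild types against 569, 582 and 513 CPM in the knockouts, with no overlap (log2 fold change 0.40, SE 0.19). Under epithelial scaling the groups of Gpx1 overlapped and its log2 fold change was 0.04. Ggt6, a gamma-glutamyltransferase family gene, and Oplah, the oxoprolinase of the glutathione cycle, had log2 fold changes of 0.64 (SE 0.31) and 0.46 (SE 0.22), against 0.35 and 0.10 under epithelial scaling.

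Of 14 transcription factors and partners known to act on glutathione transferase genes, 13 were tested with edgeR. Of these 0 passed, 8 were higher and 5 lower, with a median log2 fold change of 0.17, against 2 higher and 11 lower under epithelial scaling (median -0.12). NRF2 itself, encoded by Nfe2l2, was at 155, 153 and 153 CPM in the wild types against 144, 169 and 157 CPM in the knockouts, nearly level in all 6 libraries. In 3 of the 13 every knockout library lay above every wild type library, as in 8.73% of all genes, and under epithelial scaling the groups of all 3 overlapped. These were Keap1, the NRF2 inhibitor, at 81.5 ± 4.83 against 98.1 ± 0.215 CPM, Bach1, a repressor of NRF2 targets, at 77.8 ± 10.9 against 112 ± 21.4 CPM, and Rxra, a nuclear receptor partner, at 76.1 ± 0.762 against 93.7 ± 3.14 CPM (SD, n = 3 each). Bach1 and Rxra, 2 of the 13, were those with an unadjusted edgeR p under 0.05, beside 6.84% of all genes. The 5 that were lower were Cebpb, Ahr, Maff, Mafg and Arnt, with log2 fold changes of -0.84, -0.54, -0.46, -0.37 and -0.03. Their groups overlapped. All the genes named in this paragraph were named after their values were seen.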

How the data were processed

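Total RNA from TRIzol extraction and DNase I treatment was made into libraries with a TruSeq kit, per the labels' protocols. Alignment tool and build were TopHat2 2.0.0 and mm10, per the submitters' processing notes. The counter, annotation and strandedness were not given in the sources used here. Whether reads of overlapping genes were kept apart is therefore not known. The deposited values are estimated counts per gene (12.4% to 14.8% of features were fractional), rounded here; transcript lengths in the same deposited tables gave CPM per kilobase.

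Groups and replicate numbers came from the titles. The fit was edgeR 4.0.16 (R 4.3.3, quasi-likelihood, TMM, filterByExpr with minimum count 10) on all 6 libraries, with Benjamini-Hochberg adjustment over 16732 genes. SEs are log2 fold changes over √F. DESeq2 1.42.0 and limma-voom (limma 3.58.1) were alternatives. The steps were tested on simulated counts. No libraries of a group were copies (chi-square per degree of freedom 36.9 to 270). Sequences came from RefSeq windows (GRCm38.p6), matched by symbol for 9 of the 10 genes, and from GENCODE vM21 transcripts of the deposited length, on GRCm38, the assembly mm10 names.

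The genes, lists, motifs and rule for named genes were chosen with earlier results of these data known. The rule named the 10 genes, Fcer1a, the 5 genes most like the summed copies (tested genes with a mean of 1 CPM or more), and the 5 of smallest p in the other transferase and the glutathione list, and allowed naming their genes above 100 CPM, of which a few are named. Car1 and Sis were named as tissue checks.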

Additional observations from a re-analysis of the deposited data

How the results depend on the processing

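Over 15 alternative settings the log2 fold change of the sum of Gsta1 and Gsta2 stayed below 0, from -2.00 to -1.51, with adjusted p from 0.00287 to 1.0. DESeq2 gave -1.72 (adjusted p = 0.00287) where edgeR gave -1.69 (adjusted p = 0.686). It called 127 genes, Gsta1 among them (adjusted p = 0.00399), so that 1 of the 10 passed, and gave Gsta2 no adjusted p (log2 fold change -2.77, SE 0.74). limma-voom called 2 genes and a fit with no low-count filter 3, none of the 10. The cause of these differences was not tested. The sum over all 4 alpha copies, another quantity, was at -1.54 with edgeR. Leaving out 1 library at a time gave -1.94 to -1.51 for the sum, and edgeR then called 0 genes. Gsta1 and Gsta2 kept their direction in every setting that tested them. Both were chosen from this contrast, and their groups did not overlap, nor did those of the sum. Leaving out 1 library could therefore hardly change the sign, and the constant direction is no further evidence. Gsta2 and Gstm3 were not tested at a minimum count of 50.

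Gsta4, Gstp1, Gsto1 and Gstm3 changed sign without wild type library 1, Gstm2 (to -0.03) under epithelial scaling, Gstm3 also with limma-voom and the replicate block, and Gstt1 in 5 settings (-0.44 to 0.36). With the replicate block the sum was at -1.67 (adjusted p = 0.876) and 0 genes passed. The numbers were not taken to pair the mice, since same-numbered libraries correlated at 0.48, -0.14 and 0.01 and 2 of 6 correlated best with their own number. With 3 mice per group and a few counts of Gsta2 per knockout library, its fold change has a wide counting interval.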
